A study of Homo sapiens with 10 samples.

Results

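LSD1 (gene symbol KDM1A) and induced RCOR2 were compared by where chromatin immunoprecipitation with sequencing (ChIP-seq) placed their peaks in Kelly cells, a neuroblastoma line with amplified MYCN. The LSD1 peaks come from 2 libraries of a Kelly derivative, left non-treated, whose doxycycline-driven shRNA targets RUNX1T1, immunoprecipitated with an antibody to LSD1. The RCOR2 peaks come from 2 libraries of Kelly cells with 3xFLAG-tagged RCOR2 given 2 µg/mL doxycycline, immunoprecipitated with the M2 antibody to FLAG. The background for FLAG is 2 libraries of the same tagged cells without doxycycline and with the same antibody, and RCOR1 and RCOR3 were mapped in 2 libraries each of untreated Kelly cells with their own antibodies. All 10 libraries carry a time label of 48 h. The labels do not say whether the derivatives are clones, whether the 2 libraries of a group came from separate cultures, or how the level of tagged RCOR2 compares with that of the cell's own. Between the LSD1 and RCOR2 libraries the cell derivative, the drug, the antibody and the tag all differ along with the protein, and these cannot be told apart.

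LSD1 removes methyl groups from lysine 4 of histone H3, a mark of active promoters and enhancers. It works within the CoREST complex, in which an RCOR protein tethers LSD1 and the histone deacetylases HDAC1 and HDAC2 to each other and to nucleosomes. RCOR1, RCOR2 and RCOR3 are paralogs that can each hold LSD1, and RCOR2 is best known from neural progenitors and embryonic stem cells. DNA-binding repressors such as REST and factors with a SNAG domain (GFI1, INSM1, SNAI1) bring the complex to DNA.

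The peaks on chromosomes 1 to 22 and X of the 4 libraries were merged wherever they overlapped by at least 1 bp. LSD1 replicates 1 and 2 gave 19392 and 19667 peaks, and induced RCOR2 replicates 1 and 2 gave 75643 and 59726. The merge gave 111962 regions, out of 137558 for all 10 libraries. A region was called LSD1-only with a peak of both LSD1 libraries and of neither RCOR2 library (8116 regions, 7.25%), shared with a peak of all 4 libraries (2364, 2.11%), and RCOR2-only with a peak of both RCOR2 libraries and of neither LSD1 library (32008, 28.6%). The remaining 69474 regions belong to no class. Of these, 10363 had a peak of 1 LSD1 library alone, 54684 of 1 RCOR2 library alone, 2058 of both LSD1 and 1 RCOR2 library, 1276 of both RCOR2 and 1 LSD1 library, and 1093 of 1 library of each. No peak in a list means only that none was called there at a depth that is unknown.

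The 3 classes differ in the promoters they touch, and a pair of promoters from each class is shown for this. RefSeq promoters on GRCh38.p14, each 250 bases before to 50 bases after a transcription start, are printed 5′ to 3′ for the 2 highest-ranked regions of each class that overlap one, with every CG dinucleotide in capitals. CD53 (a tetraspanin of white blood cells, chr1:110872898-110873197, plus strand) and PACSIN2 (a membrane-bending adapter of endocytosis, chr22:42959850-42960149, minus strand) lie under LSD1-only regions, at places 135 and 327 of the class by rank. Both are starts inside their gene, 1.94 kb (CD53, and 1.22 kb from an end of the overlapping LRIF1 gene) and 55.25 kb (PACSIN2) from the nearer end, whereas the other 4 lie at or near the outer end of theirs. NUCKS1 (a DNA-binding nuclear phosphoprotein, chr1:205750133-205750432, minus strand) and SRRD (chr22:26483627-26483926, plus strand) lie under shared regions. RCOR3 (the RCOR paralog, chr1:211259116-211259415, plus strand) and PUM2 (an RNA-binding translational repressor, chr2:20350935-20351234, minus strand) lie under RCOR2-only regions. The shared regions stand at places 1 and 2 of their class and the RCOR2-only regions at places 2 and 8.
CD53: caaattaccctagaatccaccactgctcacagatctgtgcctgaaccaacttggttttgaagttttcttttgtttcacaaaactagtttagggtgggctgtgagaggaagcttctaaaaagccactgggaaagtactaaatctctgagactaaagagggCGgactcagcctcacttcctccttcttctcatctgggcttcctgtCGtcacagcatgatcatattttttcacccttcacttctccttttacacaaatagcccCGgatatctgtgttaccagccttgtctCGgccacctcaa
PACSIN2: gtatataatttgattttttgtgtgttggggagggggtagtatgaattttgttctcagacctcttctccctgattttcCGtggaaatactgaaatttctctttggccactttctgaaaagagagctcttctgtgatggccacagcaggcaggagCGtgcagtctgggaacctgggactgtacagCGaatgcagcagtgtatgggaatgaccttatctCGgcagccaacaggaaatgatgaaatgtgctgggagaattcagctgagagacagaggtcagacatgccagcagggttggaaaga
NUCKS1: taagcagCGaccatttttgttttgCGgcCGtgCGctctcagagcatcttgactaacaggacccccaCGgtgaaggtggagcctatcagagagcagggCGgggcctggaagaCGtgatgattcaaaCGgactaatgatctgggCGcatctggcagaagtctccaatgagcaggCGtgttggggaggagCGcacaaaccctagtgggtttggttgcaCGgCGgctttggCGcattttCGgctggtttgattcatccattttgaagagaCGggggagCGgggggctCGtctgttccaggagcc
SRRD: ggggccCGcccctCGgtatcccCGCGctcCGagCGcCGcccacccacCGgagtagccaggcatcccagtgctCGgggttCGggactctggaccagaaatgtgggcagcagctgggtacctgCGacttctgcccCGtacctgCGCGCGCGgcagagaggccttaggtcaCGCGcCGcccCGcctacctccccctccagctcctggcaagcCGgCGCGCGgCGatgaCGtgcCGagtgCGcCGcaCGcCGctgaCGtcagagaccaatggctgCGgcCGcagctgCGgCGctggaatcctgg
RCOR3: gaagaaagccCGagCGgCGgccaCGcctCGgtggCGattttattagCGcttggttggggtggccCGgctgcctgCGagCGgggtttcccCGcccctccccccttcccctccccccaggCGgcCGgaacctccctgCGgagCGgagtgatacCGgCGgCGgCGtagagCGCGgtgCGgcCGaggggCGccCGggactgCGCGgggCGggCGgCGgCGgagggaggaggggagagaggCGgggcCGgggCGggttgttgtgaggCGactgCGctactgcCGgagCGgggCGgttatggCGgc
PUM2: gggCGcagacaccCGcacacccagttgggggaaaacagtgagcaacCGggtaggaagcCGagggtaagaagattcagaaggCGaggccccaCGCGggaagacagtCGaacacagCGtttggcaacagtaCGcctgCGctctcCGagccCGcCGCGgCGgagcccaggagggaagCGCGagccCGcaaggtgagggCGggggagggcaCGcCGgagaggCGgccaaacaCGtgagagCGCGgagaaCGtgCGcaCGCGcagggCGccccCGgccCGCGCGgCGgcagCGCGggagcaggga

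The promoters of CD53 and PACSIN2 hold 4 CG dinucleotides each, that of NUCKS1 18, SRRD 36, RCOR3 40 and PUM2 38. The same order appeared over all promoters of the table, which leaves out chromosome 8 and matched 82.1% of the protein-coding genes elsewhere. The 95 promoters that overlap an LSD1-only region had a median of 3 CG dinucleotides in 300 bases, the 480 that overlap a shared region 21, and the 15159 that overlap an RCOR2-only region 29. The 16225 promoters without a peak of any of the 4 libraries also had a median of 3. LSD1-only promoters were therefore as poor in CG as promoters with no peak, and RCOR2-only promoters were mostly CG-rich.

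Short sequence words were counted in the same windows on both strands. The GATA box (AGATAA or TGATAA) was present in 45.3% of LSD1-only promoters (43 of 95, 95% Wilson interval 35.6 to 55.3%), 11.7% of shared promoters (56 of 480) and 5.20% of RCOR2-only promoters (788 of 15159). It was present in 27.7% of promoters with no peak and in 16.3% of all promoters. The SP1 box (GGGCGG, which itself contains a CG) ran the other way, at 9.47% for LSD1-only, 55.8% for shared and 77.9% for RCOR2-only promoters, beside 44.9% of all promoters. The E-box CAGATG was found in 28.4%, 12.1% and 7.84% of the 3 sets in the same order and in 14.7% of all promoters, and the E-box CAGCTG in 30.5%, 19.2% and 16.4% beside 17.9%. The ETS core (CCGGAAG) was found in 2.11% of LSD1-only, 19.8% of shared and 16.99% of RCOR2-only promoters, beside 10.2% of all. The CCAAT box was found in 46.3%, 40.0% and 31.8% of the 3 sets beside 34.6% of all promoters, and the homeodomain word TAATTA in 10.5%, 3.13% and 1.37% beside 4.86%. The E-box CACGTG was found in 4.21%, 7.50% and 9.95% beside 7.24%, and the NRF1 core (GCATGCG) in 2.11%, 5.63% and 6.34% beside 3.87%. The first part of the REST element (CAGCACC) was found in 3.16%, 6.88% and 8.15% beside 7.74%, so its RCOR2-only share is near that of all promoters. The printed PACSIN2 promoter holds 1 GATA box and the other 5 printed promoters none. A word match is a description of these letters and depends on base composition, which differs between the sets, with a median GC content of 45.7% in LSD1-only, 60.0% in shared and 68.3% in RCOR2-only promoters. Promoters without a peak had 46.7%, close to the LSD1-only set. They held the SP1 box in 12.5%, CAGATG in 21.3%, CAGCTG in 19.2%, the ETS core in 2.55% and TAATTA in 8.52%. The CCAAT box was found in 37.0% of them, CACGTG in 4.26%, the NRF1 core in 1.14% and CAGCACC in 7.11%. These shares lie within the LSD1-only intervals except for CAGCTG (22.2 to 40.4%). The LSD1-only interval of the GATA box also lay above the share without a peak. Several promoters of a gene can lie in 1 region, so they are not independent. Intervals here cover counting error only.

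LSD1-only regions lay far from gene ends, RCOR2-only regions near them, and shared regions in between. A gene end means here the 2 kb on either side of the first or last base of a protein-coding gene, since the gene table gives no strand. Of the LSD1-only regions 3.25% lay at a gene end (interval 2.89 to 3.66%), of the shared regions 17.1% (15.7 to 18.7%) and of the RCOR2-only regions 44.9% (44.3 to 45.4%). Within a gene body away from its ends lay 45.7% of LSD1-only, 36.3% of shared and 27.0% of RCOR2-only regions. Between genes lay 51.0%, 46.5% and 28.1%. The median distance to the nearest gene end was 61.6 kb for LSD1-only, 34.2 kb for shared and 3.54 kb for RCOR2-only regions, and 36.8%, 25.7% and 11.3% lay over 100 kb away. Shared regions were the widest, with a median of 931 bp, against 398 bp for LSD1-only and 678 bp for RCOR2-only regions, and the width of a merged region grows with the number of peaks in it. On some whole chromosomes the LSD1-only and RCOR2-only shares also differed, and on others they were nearly equal. Chromosome 22 held 2.70% of LSD1-only and 2.64% of RCOR2-only regions, and chromosome 18 held 1.23% and 1.18%. Gene-dense chromosome 19, with 7.26% of the protein-coding genes, held 0.542% of LSD1-only, 3.76% of shared and 8.40% of RCOR2-only regions, and chromosome 3, with 5.34% of the genes, held 9.06%, 5.63% and 4.82%.

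**Figure D1:**
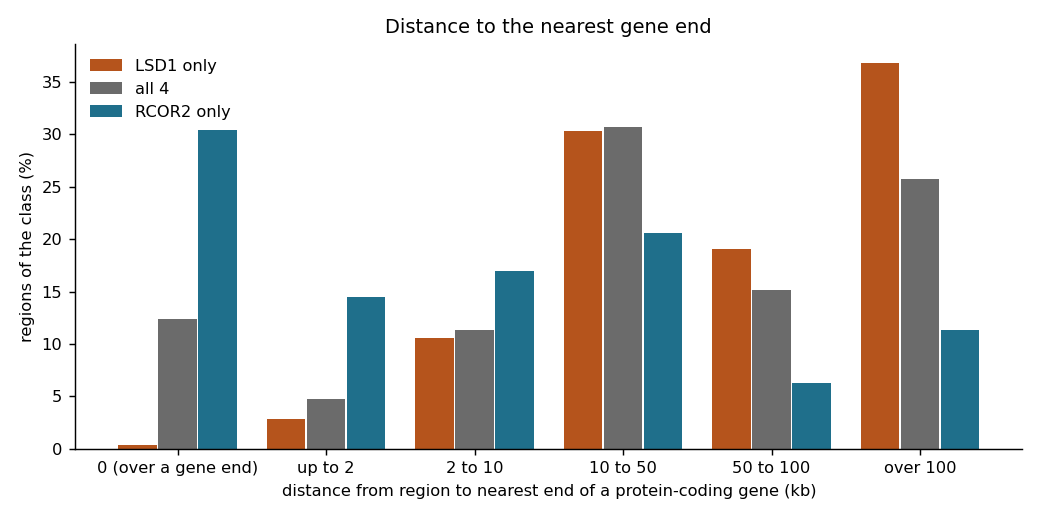
Distance from each region to the nearest end of a protein-coding gene in kb (horizontal axis, 6 ranges) and the share of the class in percent (vertical axis) for LSD1-only, shared (all 4) and RCOR2-only regions. RCOR2-only regions peak at distance 0 (30.4%), LSD1-only regions beyond 100 kb (36.8%).

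The same contrast stood in each library before any merging. The share of peaks at gene ends was 9.64% and 5.48% in the LSD1 libraries, against 28.1% and 33.7% in the induced RCOR2 libraries. Both LSD1 values lay below both RCOR2 values. The means were 7.56% ± 2.94 for LSD1 and 30.9% ± 3.96 for RCOR2 (SD, n = 2 each), a difference of −23.4 percentage points with an exact two-sided permutation p of 0.333. That is the smallest p that 2 libraries against 2 allow, so no difference of this design can pass a threshold of 0.05.

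Shared regions were a small part of either protein's list. Of the 12538 regions with both LSD1 libraries 18.9% also held both RCOR2 libraries (interval 18.2 to 19.5%). Of the 35648 regions with both RCOR2 libraries 6.63% also held both LSD1 libraries (6.38 to 6.89%). Position split these shares in opposite ways. Of the 777 LSD1 regions at gene ends 52.1% held RCOR2, against 16.7% of the 11761 away from them. Of the 15487 RCOR2 regions at gene ends 2.62% held LSD1, against 9.72% of the 20161 away from them. An LSD1-only region lay a median of 37.3 kb from the nearest RCOR2 region of both libraries, with 11.99% of them within 5 kb. An RCOR2-only region lay a median of 119 kb from the nearest LSD1 region, with 4.37% within 5 kb.

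The share of LSD1 regions with RCOR2 went up with the strength of LSD1. Regions were put into 10 equal bins by the lower of their libraries' percentile ranks of the authors' peak score. In the strongest bin of LSD1 regions 50.4% held both RCOR2 libraries (47.6 to 53.2%), against 8.13% in the second-lowest bin and 16.6% in the lowest. The strongest bin had median fold enrichments of 14.3 and 19.0 in LSD1 replicates 1 and 2, and 4.39% of it lay at gene ends, so these were mostly distal regions. Away from gene ends, 49.5% of its 1199 regions held RCOR2. An uninduced FLAG peak was found in 15.0% of this bin and in 4.94 to 8.54% of the other bins.

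The share of RCOR2 regions with LSD1 went down with the strength of RCOR2. It was 10.1% in the lowest bin of RCOR2 regions (9.13 to 11.1%), 3.28% and 3.17% in the eighth and ninth, and 4.10% in the highest (3.49 to 4.80%). Over the same bins the share at gene ends went from 22.6% in the lowest to 77.2% in the highest, and the share with an uninduced FLAG peak from 8.59% to 74.6%. Away from gene ends the LSD1 share was 11.99% in the lowest and 6.77% in the highest bin, and at gene ends 3.48% and 3.31%. The part of uninduced FLAG signal in the RCOR2 trend was not tested. Among regions without any uninduced peak, 14.1% of LSD1 regions held RCOR2 and 6.20% of RCOR2 regions held LSD1.

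**Figure D2:**
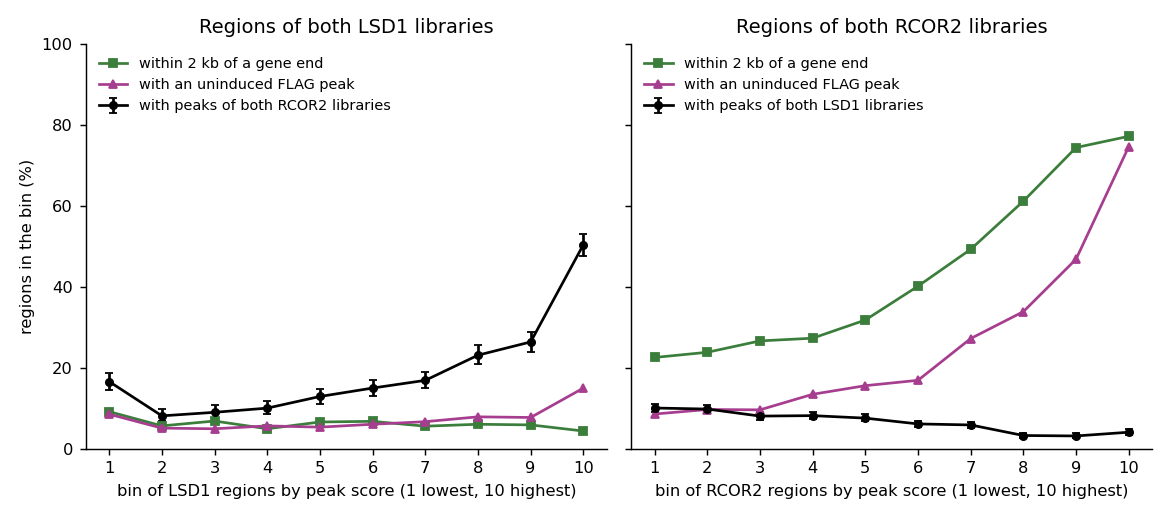
Regions of both LSD1 libraries (left) and of both induced RCOR2 libraries (right) in bins by peak score (horizontal axis, 1 lowest to 10 highest), with the percent of each bin that holds peaks of both libraries of the other protein (black, 95% Wilson intervals), lies within 2 kb of a gene end (green) or holds an uninduced FLAG peak (purple). The black line climbs to 50.4% for LSD1 and falls to between 3.17% and 4.10% in the top 3 bins of RCOR2.

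Fold enrichment per peak, a ratio over local background written by the authors' peak caller, was read only within a library. In the LSD1 libraries shared regions had median folds of 6.17 and 6.89 and LSD1-only regions 6.07 and 6.78, which are nearly equal medians over unequal spreads. The middle 50% of shared regions ran from 3.78 to 10.8 in LSD1 replicate 1, that of LSD1-only regions from 4.98 to 7.70. By peak score the LSD1 libraries did differ, with median percentile ranks of 82.2 and 81.3 in shared and 55.7 and 59.6 in LSD1-only regions. In the RCOR2 libraries these ranks were 71.2 and 50.8 in shared and 72.5 and 68.7 in RCOR2-only regions. In the RCOR2 libraries shared regions had median folds of 7.19 and 6.32 and RCOR2-only regions 8.26 and 10.1. On the log2 scale the shared median exceeded the LSD1-only median by 0.02 in both LSD1 libraries, and the shared minus RCOR2-only difference was −0.20 and −0.68 in the RCOR2 libraries. The mean difference was 0.02 ± 0.00096 for LSD1 and −0.44 ± 0.34 for RCOR2 (SD, n = 2 each), 0.46 apart with an exact two-sided permutation p of 0.333, the smallest possible. This contrast came to −0.0011 without LSD1 replicate 2 and −0.03 without RCOR2 replicate 2, so it has no stable sign.

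Position mattered to these medians. At gene ends the LSD1 folds were lower in shared regions, at 4.37 and 4.54, than in LSD1-only regions, at 5.70 and 6.13 (log2 differences −0.38 and −0.43). There the RCOR2 folds were 12.4 and 13.8 in shared regions and 10.9 and 18.4 in RCOR2-only regions, so the 2 libraries pointed in opposite directions (0.17 and −0.41). Away from gene ends the LSD1 folds were higher in shared regions, at 6.94 and 7.89, than in LSD1-only regions, at 6.07 and 6.78 (0.19 and 0.22). The RCOR2 folds there were 6.64 and 5.85 in shared and 7.01 and 7.44 in RCOR2-only regions (−0.08 and −0.35).

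**Figure D3:**
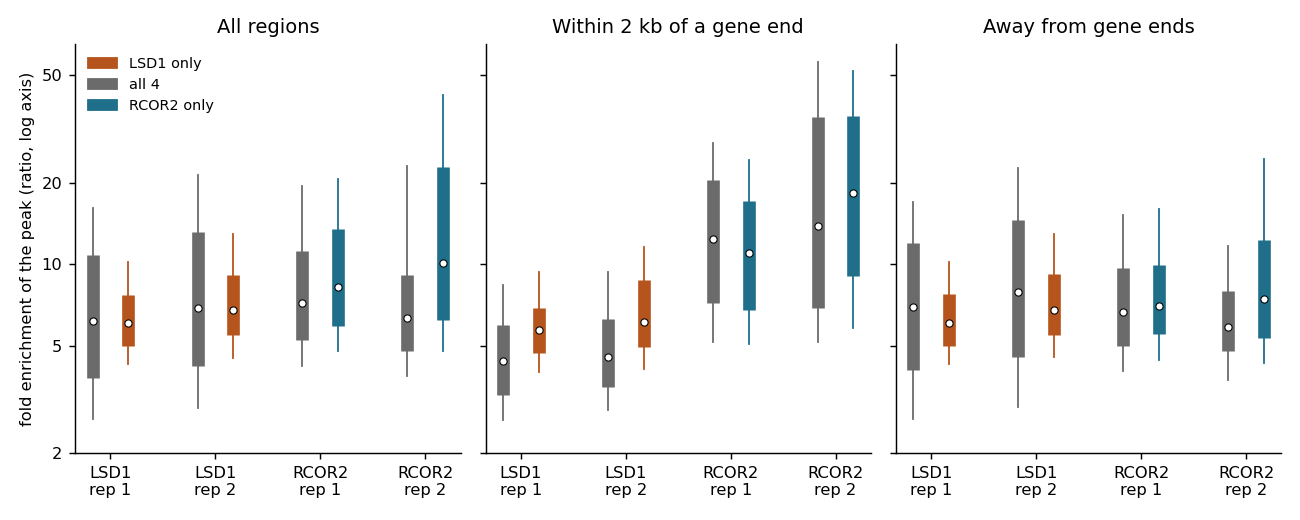
Fold enrichment (vertical axis, log scale) of shared regions (grey) beside LSD1-only (orange) or RCOR2-only (blue) regions in each of the 4 libraries, over all regions, at gene ends and away from them. Dots are medians, thick bars the middle 50% and thin lines the 10th to 90th percentile of regions; LSD1 medians of shared regions lie below the LSD1-only medians at gene ends (4.37 and 4.54 against 5.70 and 6.13) and above them elsewhere.

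Within the 2364 shared regions, the folds of one protein told little about those of the other. Spearman's rho of the folds across regions was 0.915 between the LSD1 libraries and 0.696 between the RCOR2 libraries, and between −0.11 and −0.07 for the 4 pairs of an LSD1 and an RCOR2 library. Without the regions within 2 Mb of MYCN the cross-protein values were −0.27 to −0.23. At gene ends they were −0.35 to −0.24, and away from them 0.02 to 0.07. These are descriptions over regions of the same libraries, which are not independent replicates.

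The summits of the proteins lay close together in distal shared regions and apart at gene ends. Away from gene ends the median distance between an LSD1 and an RCOR2 summit was 71 to 91 bp over the 4 library pairs, beside 36 bp between the LSD1 replicates and 73 bp between the RCOR2 replicates. At gene ends it was 192 to 278 bp, beside 37 bp and 86 bp between replicates. RCOR2 summits of shared regions near a start lay a median of 246.5 bp (replicate 1) and 186.5 bp (replicate 2) from it in either direction, and LSD1 summits 390.5 bp and 464.5 bp. In RCOR2-only regions the RCOR2 summits lay 166 and 125 bp from the start. The NUCKS1 region shows the separation. Its LSD1 summits lie 788 and 775 bp upstream of the printed start and its RCOR2 summits 604 and 596 bp downstream of it, so the 4 libraries fall into 1 merged region of 2075 bp with the proteins on opposite sides of the promoter. At SRRD the LSD1 summits lie 422 and 407 bp downstream of the start, and the RCOR2 summits 58 bp upstream and at the start itself.

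The highest-ranked LSD1-only regions are strong by the way they were ranked, and they lay away from gene ends like most of their class. The first lies in the body of SPECC1L, a gene for a cytoskeletal cross-linker (chr22:24391657-24393484), with LSD1 folds of 31.7 and 54.4 in replicates 1 and 2. The second lies 533 kb from CDH11, a mesenchymal cadherin (chr16:65656826-65659061; folds 31.7 and 45.1). The others among the first 10 lie in MED27, AMBRA1, DLG2 (a synaptic scaffold protein) and ROBO2 (an axon guidance receptor), or between genes near KCNMB2, KRR1, CPB1 and SLC39A11. None of the 10 lies at a gene end, which is near the 3.25% of the whole class. All 10 hold peaks of both RCOR1 and both RCOR3 libraries. The region near SLC39A11 also holds a peak of 1 uninduced FLAG library, and the other 9 hold none.

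The highest-ranked shared regions lay mostly at gene ends, and their rank asks for strength in all 4 libraries. NUCKS1 leads, with LSD1 folds of 15.5 and 19.7 and RCOR2 folds of 44.9 and 70.4. SRRD follows with LSD1 folds of 8.83 and 9.54 and RCOR2 folds of 32.6 and 68.0, then SGSM1, RFX1 (a winged-helix transcription factor), NR6A1 (an orphan nuclear receptor), PLXNA1 (a semaphorin receptor), TKT (transketolase), AHCY, KXD1 and the predicted gene LOC107987432. Of the 10 regions 8 lie at gene ends, beside 17.1% of all shared regions. Those of NUCKS1, LOC107987432, PLXNA1, TKT and AHCY held a peak of both uninduced FLAG libraries. Those of SRRD and RFX1 held a peak of 1, and those of SGSM1, NR6A1 and KXD1 of none. PLXNA1 had the lowest LSD1 folds of the 10, at 3.86 and 4.48, with RCOR2 folds of 77.3 and 59.4. Of the RCOR2-only regions the second highest is the promoter of RCOR3 (folds 78.6 and 96.5), with PUM2, a region of the HDGF gene body nearest to MRPL24, and regions between genes near METRNL, FCGR2A, ADAMTS17 and IQSEC3 among the first 10. All 10 hold peaks of both uninduced FLAG libraries, so they were also called without doxycycline.

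The other proteins of the series were found at the 3 classes to very different extents. Both RCOR1 libraries had a peak in 23.3% of LSD1-only, 83.8% of shared and 20.5% of RCOR2-only regions. RCOR1 replicate 1, which has 49250 peaks, was found in 76.4%, 98.9% and 41.6%, and RCOR1 replicate 2, which has 18297, in 23.9%, 84.3% and 22.6%. Most LSD1-only regions thus held RCOR1 by replicate 1 and most did not by replicate 2. Both RCOR3 libraries had a peak in 17.6% of LSD1-only, 70.7% of shared and 6.97% of RCOR2-only regions. Away from gene ends the RCOR1 shares were 23.2%, 84.2% and 11.3% and the RCOR3 shares 17.7%, 72.9% and 4.39%, so the shared regions stood out there as well.

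Uninduced FLAG peaks marked where the RCOR2 classes cannot be laid to the induced protein alone. A peak of either uninduced library was found in 0.776% of LSD1-only, 30.5% of shared and 24.5% of RCOR2-only regions. Peaks of both, whose lists hold 10253 and 14958 peaks, were found in 0.037%, 7.06% and 6.52%. At gene ends a peak of either was found in 46.9% of shared and 31.3% of RCOR2-only regions, and away from them in 27.1% and 19.1%. Without the regions holding a peak of either, 8053 LSD1-only, 1644 shared and 24153 RCOR2-only regions remained. Of these 3.27%, 13.1% and 40.9% lay at gene ends. In the ninth and highest bins of RCOR2 regions by score, 46.8% and 74.6% held an uninduced peak. Genes named below for high RCOR2 folds may therefore also have been called without doxycycline, where uninduced peaks are not mentioned.

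Part of the shared class came from the amplified MYCN locus. Within 2 Mb of MYCN (chr2:15940550-15947004) lay 120 of the shared regions (5.08%), 28 LSD1-only (0.345%) and 82 RCOR2-only regions (0.256%). The 120 had low folds, with medians of 1.72 and 1.92 in the LSD1 libraries and 3.44 and 2.70 in the RCOR2 libraries, and 98.3% of them held an uninduced FLAG peak. Shared regions elsewhere had medians of 6.50, 7.31, 7.46 and 6.38 in the same libraries, and 26.8% held an uninduced peak. The 31 shared regions nearest to MYCN and the 29 nearest to CYRIA are the most of any gene and lie in this stretch. The best of the 31 at MYCN reached LSD1 folds of 2.15 and 2.39. Copy number was not measured here, and its part in these peaks was not tested.

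Each region was then given to the protein-coding gene whose end lay nearest, within 100 kb. A region is given to 1 gene only, so a promoter that 2 genes share counts for the nearer one. LSD1-only regions were nearest to 2908 genes, which is 14.6% of the 19974 protein-coding genes, shared regions to 1326 (6.64%) and RCOR2-only regions to 13998 (70.1%). With the region required at the gene end, the counts were 253 (1.27%), 398 (1.99%) and 11685 (58.5%). Of the 2908 genes with an LSD1-only region 82.0% also had an RCOR2-only region, and 65.7% had an RCOR2-only region at their end, beside 70.1% and 58.5% of all genes. Of the 13998 genes with an RCOR2-only region 17.03% had an LSD1-only region. The 2384 genes with both are 11.9% of all genes, and the 1912 with an RCOR2-only region at a gene end and an LSD1-only region at any distance up to 100 kb are 9.57%. Gene length goes with these counts, and its part in them was not tested. Genes with an LSD1-only region had a median length of 77.8 kb, those with a shared region 51.7 kb, those with an RCOR2-only region 29.4 kb, and all genes 24.2 kb. Of genes longer than 100 kb, 36.5% had an LSD1-only region, 12.5% a shared and 82.4% an RCOR2-only region, beside 10.1%, 5.46% and 67.6% of shorter genes.

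Adrenergic core regulators, the transcription factors that define the noradrenergic state of neuroblastoma, had regions of both proteins. Of the 27 listed genes 13 had an LSD1-only region, 11 a shared region and all 27 an RCOR2-only region, 25 of them at a gene end. The LSD1-only and shared counts are 48.1% and 40.7% of the list, beside 14.6% and 6.64% of all genes, and 70.1% of all genes had an RCOR2-only region. The 11 include MYCN, whose shared regions lie in the stretch of low folds described above. With regions given to the nearest gene of any type, 4 had an LSD1-only, 5 a shared and 25 an RCOR2-only region. The share of all genes under that setting is not given here. The median length of the 27 genes is 11.3 kb, which is below that of all genes.

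HAND1, a basic helix-loop-helix factor of the same circuit, had 3 LSD1-only, 7 shared and 6 RCOR2-only regions, 5 of the 6 at its ends. Its 7 shared regions spread over 7.27 to 97.2 kb from the gene, with LSD1 folds up to 12.5 and 18.1 and RCOR2 folds up to 17.1 and 8.81. GATA3 had 1 LSD1-only region 93.3 kb away, 2 shared and 9 RCOR2-only regions. Its shared region 40.8 kb away had LSD1 folds of 14.5 and 20.9 and RCOR2 folds of 8.95 and 5.31, while its RCOR2-only region in the gene body reached 38.2 and 75.3. KLF7 carried 5 LSD1-only regions, the most of the list, with LSD1 folds of 14.04 and 17.8 in the strongest (chr2:207087047-207088170), and 2 shared regions. Its single RCOR2-only region, 6.76 kb inside the gene, had RCOR2 folds of 31.5 and 54.8.

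Several other members of the circuit had RCOR2-only regions alone. TBX2 had 8 RCOR2-only regions and none of the other classes, with RCOR2 folds of 43.1 and 79.2 in the strongest, and GATA2 had 7 with folds up to 30.7 and 47.2. PHOX2A, SOX4, SOX11, INSM1, INSM2, GFI1, SATB1, SIX3 and ZNF536 likewise had RCOR2-only regions alone, between 1 (INSM2) and 8 (SIX3). HAND2, ISL1, DACH1 and MEIS2 had LSD1-only and RCOR2-only regions and no shared one, while TBX3, TFAP2B, PBX3 and EYA1 had all 3 classes. LMO1, a transcriptional cofactor and neuroblastoma susceptibility gene, had 3 shared and 2 RCOR2-only regions, and TLX2 1 of each. MYCN had 2 LSD1-only, 31 shared and 23 RCOR2-only regions.

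Genes of the LSD1-CoREST complex itself had RCOR2-only regions at their ends and no shared region. All 18 had an RCOR2-only region, 17 of them at a gene end, beside 70.1% and 58.5% of all genes. An LSD1-only region was found for 5 (27.8%, beside 14.6% of all genes), none at a gene end. Of all genes 6.64% had a shared region and 1.27% an LSD1-only region at a gene end. In a list of 18 genes, the absence of both is near those shares. The median length of the 18 genes is 60.6 kb. The KDM1A region had RCOR2 folds of 24.9 and 74.4, HDAC2 33.5 and 57.6 and HDAC1 23.7 and 41.7. Whether these regions also held an uninduced FLAG peak is not given here. RCOR3 is named above among the highest-ranked regions. RCOR2 itself had 5 regions with folds up to 60.9 and 86.7, and that strongest region also had a peak in both uninduced libraries. RCOR2 is expressed here from an introduced gene, and the part of that copy in the peaks at the RCOR2 gene was not tested. LSD1-only regions stood, among others, at HDAC1, HDAC2 and PHF21A (1 each) and at ZNF217, a zinc-finger partner of the complex (4), whose strongest had LSD1 folds of 10.4 and 10.5 at 23.8 kb from the gene.

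**Figure D4:**
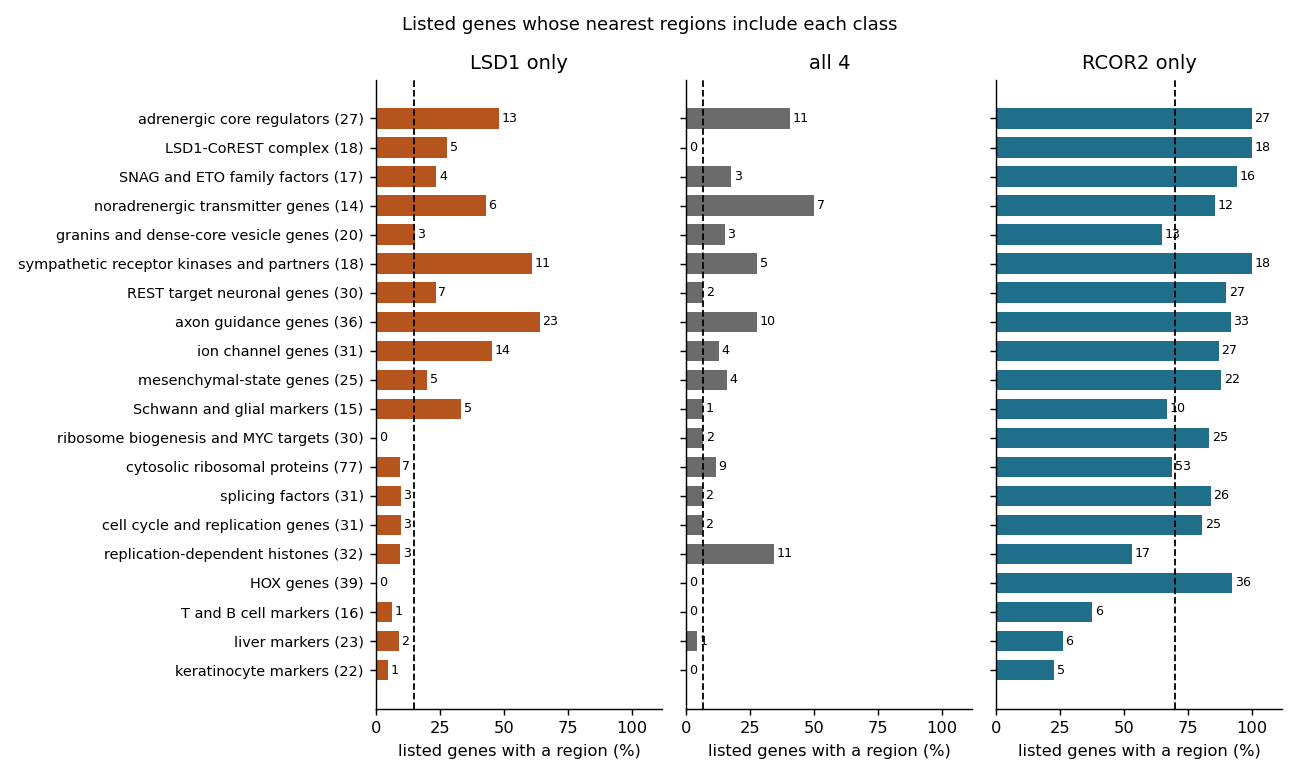
Percent of the genes of each list (number found in brackets) that are nearest to an LSD1-only (left), shared (middle) or RCOR2-only region (right); the number at each bar counts genes and the dashed line is the share of all 19974 protein-coding genes (14.6%, 6.64% and 70.1%). Axon guidance (23 of 36) and receptor kinase genes (11 of 18) have the longest LSD1-only bars, noradrenergic transmitter genes the longest shared bar (7 of 14).

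Axon guidance genes had the highest share of genes with an LSD1-only region of the 20 lists. Of 36 axon guidance genes 23 (63.9%) had an LSD1-only region, 10 (27.8%) a shared and 33 (91.7%) an RCOR2-only region. The shares of all genes were 14.6%, 6.64% and 70.1%. None of the 36 had an LSD1-only region at a gene end, which is near the 1.27% of all genes. An RCOR2-only region lay there for 28 (77.8%), beside 58.5% of all genes. UNC5C, a netrin receptor, had the strongest of the LSD1-only regions in its body (chr4:95530932-95531648), with LSD1 folds of 23.8 and 28.7. EFNA5, an ephrin ligand, had one 33.6 kb away with 16.4 and 26.1. UNC5B, a second netrin receptor, had LSD1 folds of 12.9 and 18.04 in an LSD1-only region 9.85 kb from the gene and, at its end, an RCOR2-only region with RCOR2 folds of 29.0 and 62.9. The listed axon guidance genes have a median length of 232 kb, and the part of length in their count was not tested.

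Of 18 sympathetic receptor kinases and partners 11 (61.1%) had an LSD1-only region, 5 (27.8%) a shared region and all 18 an RCOR2-only region. The shares of all genes were 14.6%, 6.64% and 70.1%. The median length of the 18 genes is 155 kb. ALK, the receptor kinase mutated in neuroblastoma, had all 3 classes, with 3 LSD1-only, 2 shared and 2 RCOR2-only regions. A shared region in its gene body (chr2:29262080-29263995) had LSD1 folds of 16.2 and 21.8 and RCOR2 folds of 12.7 and 12.3. The ALK promoter had an RCOR2-only region with folds of 15.8 and 58.4, and an LSD1-only region 55.8 kb away had 7.70 and 9.35. Of 31 ion channel genes 14 had an LSD1-only, 4 a shared and 27 an RCOR2-only region, and their median length of 360 kb is the longest of the lists.

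Noradrenergic transmitter genes had the highest share of genes with a shared region of the 20 lists. Of 14 genes 6 had an LSD1-only region, 7 a shared region and 12 an RCOR2-only region, with a median length of 27.0 kb, which is close to that of all genes. These counts are 42.9%, 50% and 85.7% of the list, beside 14.6%, 6.64% and 70.1% of all genes. SLC6A2, the noradrenaline transporter, had a shared region 3.09 kb away with LSD1 folds of 13.3 and 14.9 and RCOR2 folds of 19.9 and 12.8. DDC, the enzyme that makes dopamine from L-DOPA, had an LSD1-only region 2.11 kb away with folds of 11.1 and 8.92. Of 20 granin and dense-core vesicle genes 3 had an LSD1-only, 3 a shared and 13 an RCOR2-only region, shares of which the RCOR2-only one lies below that of all genes. CHGA, chromogranin A, had a shared region 4.27 kb away with LSD1 folds of 6.48 and 7.38 and RCOR2 folds of 17.1 and 7.97.

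Lists of repressors that recruit the complex and of REST targets had mostly RCOR2-only regions, as did genes in general. Of all genes 14.6% had an LSD1-only, 6.64% a shared and 70.1% an RCOR2-only region. Of 17 SNAG and ETO family factors 4 (23.5%) had an LSD1-only, 3 (17.6%) a shared and 16 (94.1%) an RCOR2-only region. SNAI1, a SNAG-domain repressor, had an RCOR2-only region at its end with folds of 27.1 and 64.9. CBFA2T2, an ETO paralog, had a shared region in its body with LSD1 folds of 16.9 and 18.4 and RCOR2 folds of 5.55 and 11.9. RUNX1T1, the target of the shRNA carried by the LSD1 cells, had 2 LSD1-only, 2 shared and 1 RCOR2-only region. The highest-ranked LSD1-only one, in its body, had folds of 5.75 and 8.06, and the highest-ranked shared one LSD1 folds of 8.67 and 4.94 and RCOR2 folds of 8.85 and 10.1. Of 30 REST target genes 7 (23.3%) had an LSD1-only, 2 (6.67%) a shared and 27 (90%) an RCOR2-only region. The share with a shared region is near that of all genes. At a gene end 26 (86.7%) had an RCOR2-only region, beside 58.5% of all genes. NEFH, a neurofilament gene, had RCOR2 folds of 27.5 and 58.0 at its end, and STMN3 34.6 and 50.5.

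Lists of genes that dividing cells use had smaller shares of genes with an LSD1-only region than the 14.6% of all genes. Their shares with a shared region were near the 6.64% of all genes or above it. Of 30 ribosome biogenesis genes and MYC targets none had an LSD1-only region, 2 a shared region and 25 an RCOR2-only region. PTMA, prothymosin alpha, had RCOR2 folds of 36.5 and 85.6 at its end. Of 31 splicing factors the counts were 3, 2 and 26, of 31 cell cycle and replication genes 3, 2 and 25, and of 77 cytosolic ribosomal protein genes 7, 9 and 53. Of the ribosomal protein genes 68.8% had an RCOR2-only region and 61.0% had one at a gene end, near the 70.1% and 58.5% of all genes, and 11.7% had a shared region, beside 6.64%. The shared counts of the splicing and cell cycle lists are 6.45% each. The ribosome biogenesis, splicing, cell cycle and ribosomal protein lists have median lengths of 12.9, 18.2, 17.2 and 5.01 kb, below the 24.2 kb of all genes. Of genes of 100 kb or less 10.1% had an LSD1-only region. The splicing, cell cycle and ribosomal protein shares of 9.68%, 9.68% and 9.09% are near that. The part of length was not tested. All 39 HOX genes lacked LSD1-only and shared regions, and 36 had an RCOR2-only region, led by HOXC6 (78.6 and 62.7, with a peak in both uninduced libraries). Neighbouring HOX genes share regulatory stretches, so they are not independent.

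Replication-dependent histone genes differed from the other proliferation lists. Of 32 genes 11 had a shared region, 9 of them at a gene end, against 3 with an LSD1-only and 17 with an RCOR2-only region. At gene ends the shared class took 28.1% of the list, beside 1.99% of all genes. H4C5 had LSD1 folds of 9.56 and 11.8 and RCOR2 folds of 11.6 and 7.41 at its end, and H2BC4 LSD1 folds of 7.59 and 7.55 and RCOR2 folds of 12.2 and 7.22. Neither region held an uninduced FLAG peak. The genes lie in dense clusters and are nearly identical copies in part, so reads could be split between them and these values are uncertain.

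Genes of other cell types and of the mesenchymal state were counted in the same way. Of all genes 14.6% had an LSD1-only, 6.64% a shared and 70.1% an RCOR2-only region. Of 25 mesenchymal-state genes 5 had an LSD1-only, 4 a shared and 22 an RCOR2-only region; SPARC, a matrix protein gene, had LSD1 folds of 15.9 and 23.7 at 16.2 kb, and FOSL2 a shared region at its end with LSD1 folds of 3.22 and 5.06 and RCOR2 folds of 19.9 and 62.4. The mesenchymal shares were 20%, 16% and 88%, above those of all genes in all 3 classes. Of 15 Schwann and glial markers the counts were 5, 1 and 10 (33.3%, 6.67% and 66.7%). Their LSD1-only share lay above that of all genes and the others were near it. Of 16 T and B cell markers they were 1, 0 and 6, of 23 liver markers 2, 1 and 6, and of 22 keratinocyte markers 1, 0 and 5. The last 3 lists lay below the share of all genes in all 3 classes. In lists of 16 to 23 genes, shared counts of 0 or 1 are near the 6.64% of all genes.

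Some genes collected many LSD1-only regions. PLPPR4, a brain lipid-phosphatase-related gene, and WSCD2 had 15 each, followed by CMKLR1, ELMO1, IGSF21 and PRKCH with 12, CWH43 and PKDCC with 11 and ABAT, the GABA-degrading transaminase, and CCDC190 with 10. The 15 at WSCD2 include 14 inside the gene, with LSD1 folds up to 11.2 and 13.9, and 1 shared and 1 RCOR2-only region. Those at PLPPR4 reached 17.5 and 25.1, beside 3 shared and 2 RCOR2-only regions. The 11 at CWH43 had folds of at most 2.81 and 3.78, lower than the other 9 genes. Of the 2908 genes 1821 had a single LSD1-only region and 136 had 5 or more. Away from MYCN, the genes with the most shared regions were CCDC200 (10), CLPB and HAND1 (7 each) and MVB12B and TMEM33 (5 each). At CCDC200 the LSD1 folds were at most 3.02 and 2.75 and the RCOR2 folds up to 73.8 and 73.5. At CLPB both were high, with LSD1 folds up to 17.3 and 23.2 and RCOR2 folds up to 24.98 and 26.6. RCOR2-only regions were most numerous at RXRA, a nuclear receptor gene (57), and BAHCC1 (45), neither of which had an LSD1-only region; these 2 genes were chosen after their values were seen.

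The comparison was repeated with equal list lengths, the 19392 peaks of highest score in each library. This left the LSD1 lists almost whole, down to scores of 1.30 and 2.63 (−log10 of q), and kept RCOR2 peaks only above 12.3 and 15.98. The merge gave 46939 regions, of which 11290 were LSD1-only, 593 shared and 12497 RCOR2-only. The contrast in position widened, with 4.20% of LSD1-only, 36.9% of shared and 66.8% of RCOR2-only regions at gene ends. Of LSD1 regions 4.75% held both RCOR2 libraries and of RCOR2 regions 4.32% held both LSD1 libraries. Of the 2364 shared regions 1239 (52.4%) became LSD1-only, 591 remained shared and 2 became RCOR2-only, the others leaving all classes. LSD1 folds were lower in the 593, with medians of 3.58 and 4.03, than in LSD1-only regions, with 6.34 and 7.10. RCOR2 folds were 15.5 and 15.9 in the 593 and 15.3 and 27.5 in RCOR2-only regions. An uninduced FLAG peak was found in 2.37% of LSD1-only, 69.1% of shared and 45.3% of RCOR2-only regions, so the shared class of equal lists was mostly made of places also called without doxycycline. Of the adrenergic core regulators 16 then had an LSD1-only, 5 a shared and 22 an RCOR2-only region, and of the axon guidance genes 25, 2 and 29. Over all genes the shares with equal lists were 18.2%, 2.04% and 46.7%. Of the histone genes 9 had an LSD1-only, 1 a shared and 5 an RCOR2-only region, so their shared class rested on RCOR2 peaks of lower score.

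**Figure D5:**
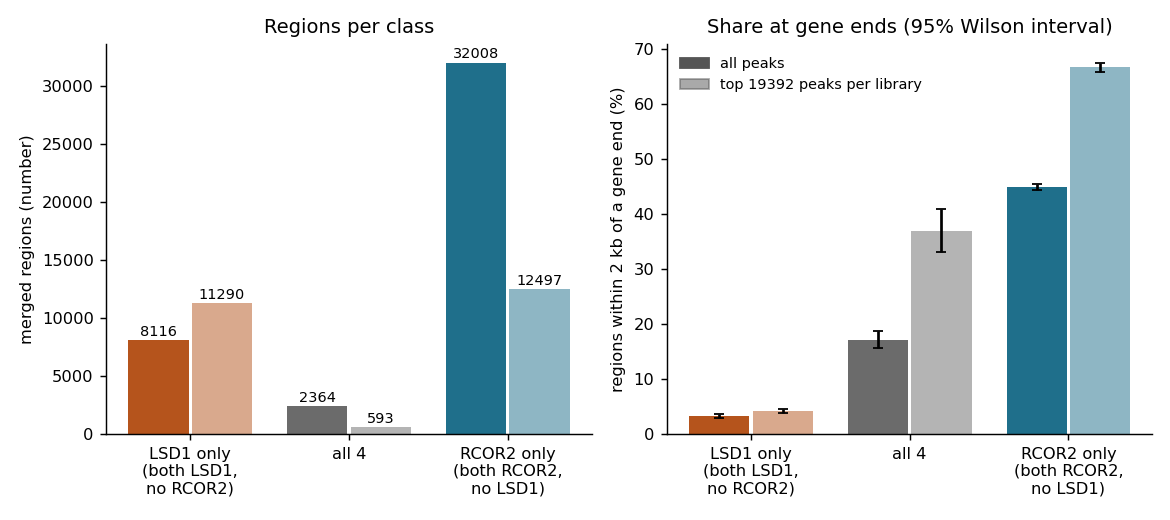
Number of merged regions (left) and percent within 2 kb of a gene end with 95% Wilson intervals (right) for LSD1-only, shared (all 4) and RCOR2-only regions, from all peaks (dark) and from the top 19392 peaks of each library (pale). With equal lists shared regions number 593 and RCOR2-only regions 12497, and the gene-end share is 4.20%, 36.9% and 66.8% across the classes.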

How the data were processed

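ChIP-seq peaks of 10 libraries, 2 in each of 5 groups, were used as deposited, with 1 list per library. The submitters' processing notes name BWA 0.7.17, MACS2 and deepTools and the build GRCh38. Which control, duplicate handling and filters went into the peak calls is not stated there. The depth is unknown, so precision rests on peak numbers. Each deposited list gives a fold enrichment per peak (a ratio) and the −log10 of its q-value (the peak score), both computed by the authors. Every peak had q under 0.05. Replicates are numbered as in the labels. Peak names inside the FLAG lists and the replicate 2 lists of RCOR1 and RCOR3 carry other replicate names. Lists of RCOR2-high and RCOR2-low regions were not used here.

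Peaks were merged with Python 3.11.15 and pandas 2.3.3, and the peak of highest score stood for a library in a region. Reciprocal overlap used bedtools 2.31.1. Genes and promoters came from RefSeq on GRCh38.p14. Of 544 genes in 20 lists 543 were found by symbol. The 2 groups were compared with exact two-sided permutation tests of per-library values (6 assignments, scipy 1.17.1), without a replicate block. These p-values measure only the spread between libraries, which may be technical. Merging and classing were tested on simulated data.

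Genes named were those nearest to the 10 regions of each class with the highest lowest-library percentile of the score, all adrenergic and LSD1-CoREST list members with a region, up to 3 members per class of other lists by that rank, and the genes with the most LSD1-only or shared regions. RXRA and BAHCC1 lie outside this rule. Not every gene so taken is printed, and some are not reported here. Regions, lists and tests were chosen with earlier results of these data known. The alternatives were equal list lengths, a score threshold, other overlaps, peak widths and gene-end definitions, leaving out uninduced peaks, the MYCN locus or 1 replicate, and a replicate block.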

Additional observations from a re-analysis of the deposited data

Results flagged for a closer look

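The difference in median log2 fold between shared regions and regions of the library's own protein alone was positive in both LSD1 libraries (0.024 and 0.023 in replicates 1 and 2) and negative in both RCOR2 libraries (−0.20 and −0.68). Away from gene ends it was again positive in both LSD1 libraries (0.19 and 0.22) and negative in both RCOR2 libraries (−0.079 and −0.35). These values drew attention because every library of one protein lay on one side of 0 and every library of the other on the opposite side. The exact two-sided permutation p of the contrast was 0.333 in both cases, the smallest that 2 libraries against 2 allow, so the design cannot show that the proteins differ here. The LSD1 values over all regions are close to 0, and the sign of the contrast changed under other settings.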

How the results depend on the processing

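The order of the classes by share at gene ends (LSD1-only lowest, RCOR2-only highest) held in every alternative run, while the sizes moved; values here run LSD1-only, shared, RCOR2-only. Equal list lengths gave 593 shared and 12497 RCOR2-only regions, gene-end shares of 4.20%, 36.9% and 66.8%, and overlap shares of 4.75% of LSD1 and 4.32% of RCOR2 regions, against 18.9% and 6.63% for all peaks. Peaks above their library's median score gave 5061, 727 and 20051 regions, 22.1% and 57.0% of shared and RCOR2-only regions at gene ends, and overlap shares of 10.96% and 3.43%. Peaks of 500 bp gave gene-end shares of 3.69%, 14.7% and 44.1%. A reciprocal overlap of 50% left 865 shared regions, gene-end shares of 5.17% (LSD1-only) and 10.98% (shared), and overlap shares of 6.81% and 3.20%. Gene ends of 500 bp gave 1.10%, 13.7% and 36.2%, transcription starts without chromosome 8 gave 4.52%, 19.2% and 41.7%, and counting genes of every type gave 11.2%, 30.2% and 57.0%. Without uninduced FLAG peaks the shared and RCOR2-only gene-end shares were 13.1% and 40.9% and the overlap shares 14.1% and 6.20%; without 2 Mb of MYCN the overlap shares were 18.1% and 6.34%.

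Leaving out 1 library in turn gave 9144 to 14128 LSD1-only, 2669 to 3414 shared and 32398 to 70096 RCOR2-only regions. Gene-end shares ran over 3.26 to 4.20%, 12.4 to 30.8% and 28.7 to 45.5%. The shared value of 30.8% came without LSD1 replicate 2, and the RCOR2-only value of 28.7% without RCOR2 replicate 2. The overlap shares ran over 13.8 to 27.2% of LSD1 and 4.54 to 9.47% of RCOR2 regions. The LSD1 minus RCOR2 difference in the gene-end share of peaks stayed negative throughout, at −26.2 to −20.6 percentage points without 1 library. With the replicate number as a block (replicate block) it was −23.4 with an exact sign-flip p of 0.5, the smallest 2 pairs allow. The labels do not say whether same-numbered libraries share a culture or a day. Their fold deviations correlated at −0.096 over the 2364 shared regions, which cannot decide this, since the antibodies differ.

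The LSD1 minus RCOR2 contrast in fold, 0.46 over all peaks, reversed to −0.44 with equal list lengths (per library −0.83 and −0.82 for LSD1, 0.020 for RCOR2 replicate 1) and to −0.29 at gene ends (−0.38 and −0.43 for LSD1, 0.17 for RCOR2 replicate 1). Without 1 library it ran from −0.033 to 0.49, and the values of single libraries from −0.32 to 0.12 (LSD1 replicate 1), 0.041 to 0.084 (LSD1 replicate 2), −0.21 to 0.11 (RCOR2 replicate 1) and −0.69 to −0.31 (RCOR2 replicate 2). It was −0.0011 without LSD1 replicate 2, with −0.32 in LSD1 replicate 1, and −0.033 without RCOR2 replicate 2, with 0.11 in RCOR2 replicate 1. It was 0.51 without 2 Mb of MYCN, 0.60 without uninduced peaks and 0.46 with the replicate block (p 0.5). These last 3 settings and the leave-one-out values of fold were chosen after seeing the data. The cause of the changes was not tested. Of 180 list counts under other settings 99 stayed within 1.5 times the reported count. Precision is limited by 2 libraries a group and an unknown depth, and a longer RCOR2 list raises the overlap with LSD1.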
